A study of Mus musculus with 54 samples.

Results

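The genes described here are 9 genes of Leydig cell steroid production, chosen by name: *Lhcgr*, *Nr5a1*, *Star*, *Cyp11a1*, *Cyp17a1*, *Hsd3b1*, *Hsd3b6*, *Hsd17b3* and *Insl3*. All 9 were among the 23284 genes of each deposited count table. The study compared 4 genotypes of C57BL/6 males aged 3 months: wild type (WT, Ctcf+/+ Boris+/+), heterozygotes for *Ctcf* (CTCF HET, Ctcf+/-), homozygous *Boris* mutants (BORIS KO, Boris-/-) and the compound mutant (CM, Ctcf+/- Boris-/-), which the sample titles call DKO. CM males came from CTCF HET females mated with BORIS KO males. CTCF is the zinc finger protein that binds insulators and chromatin loop anchors, and BORIS, encoded by *Ctcfl*, is its paralog of the male germ line. The mutations were carried by the whole animal, so Leydig cells and germ cells of a mutant had the same genotype.

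RNA was sequenced from 3 kinds of sample. Germ cell-enriched preparations of whole testis, each pooled from 4 mice, gave 3 libraries per genotype, and are called whole testis below. The interstitium, where Leydig cells lie, had been digested with collagenase before the tubules were dissociated with trypsin and filtered, so the Leydig cell RNA in these libraries was what remained after that step. Sorted round spermatids gave 3 libraries per genotype, and sorted spermatocytes gave 2 for WT and 3 for each other genotype. Total counts per library ran from 10437683 to 42055813 in whole testis, from 47740650 to 98545423 in round spermatids and from 53337530 to 88946702 in spermatocytes. Counts scaled to library size (CPM) put *Ctcf* at 40.9 to 45.1 in the WT libraries of whole testis, those of CTCF HET held 23.0 to 30.4, BORIS KO held 30.7 to 38.8 and CM held 24.3 to 26.9. *Ctcfl* had 8 to 18 counts per WT library and only 3 to 7 per BORIS KO and 2 to 8 per CM library, too few to check that genotype well.

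Leydig cells make testosterone from cholesterol under the control of luteinizing hormone. The hormone binds LHCGR, a receptor that signals through cyclic AMP, and the nuclear receptor SF-1, encoded by *Nr5a1*, switches on most genes of the pathway. STAR carries cholesterol to the inner mitochondrial membrane, where CYP11A1 cleaves its side chain to give pregnenolone. CYP17A1 adds a hydroxyl group and splits off the remaining side chain, the 3-beta-hydroxysteroid dehydrogenases HSD3B1 and HSD3B6 move the double bond into the first ring, and HSD17B3 reduces androstenedione to testosterone. INSL3 is not an enzyme but the peptide hormone that Leydig cells secrete, and it guides the descent of the testis. *Nr5a1* and *Star* are also used outside Leydig cells, the former in Sertoli cells.

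In mm9, with GENCODE vM1 gene models, *Lhcgr* lies at chr17:89140889-89191316, *Nr5a1* at chr2:38548176-38570062, *Cyp17a1* at chr19:46741655-46747464, *Hsd17b3* at chr13:64159582-64190509, *Hsd3b1* at chr3:98656117-98663717 and *Hsd3b6* at chr3:98609427-98618366, all on the minus strand. *Star* at chr8:26918946-26925782, *Cyp11a1* at chr9:57862820-57874827 and *Insl3* at chr8:74213113-74214474 lie on the plus strand. The exons of *Insl3* overlap those of the kinase gene *Jak3* on the same strand, and 61.8% of the 50-base windows of its coding transcripts also occur in *Jak3* transcripts. Of the windows of *Hsd3b6*, 16.1% occur in another gene, *Hsd3b2* foremost, and of those of *Hsd3b1* 2.11% do. Reads from these stretches cannot be given to 1 gene, and how the authors counted them is not stated. For the other 6 genes no window was shared.

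The promoters of 4 enzyme genes that rose together in CM whole testis are shown because none of them held a listed peak in either genotype and because *Hsd3b1* and *Hsd3b6* are close paralogs. They are RefSeq promoters on GRCm38.p6, 5′ to 3′ on the strand of the gene, with the 250 bases before the annotated start in lower case and the 50 bases from it in capitals. Each was found once in the mm9 genome, and the start lay 61 bases upstream of the mm9 gene start for *Cyp11a1* and at the mm9 start for the other 3.
Cyp11a1 promoter, chr9:58014702-58015001, plus strand: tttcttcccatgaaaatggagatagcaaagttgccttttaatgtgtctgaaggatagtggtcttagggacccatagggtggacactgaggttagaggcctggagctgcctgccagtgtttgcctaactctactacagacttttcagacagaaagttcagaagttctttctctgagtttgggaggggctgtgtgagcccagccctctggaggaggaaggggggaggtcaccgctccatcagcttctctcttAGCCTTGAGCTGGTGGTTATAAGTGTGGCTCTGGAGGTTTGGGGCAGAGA
Hsd3b1 promoter, chr3:98859745-98860044, minus strand: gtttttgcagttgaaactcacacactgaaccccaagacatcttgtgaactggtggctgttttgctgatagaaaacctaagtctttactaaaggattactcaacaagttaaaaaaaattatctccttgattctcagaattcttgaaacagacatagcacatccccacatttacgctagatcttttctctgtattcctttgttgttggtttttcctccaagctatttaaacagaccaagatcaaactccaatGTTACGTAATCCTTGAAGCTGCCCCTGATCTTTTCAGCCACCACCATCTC
Hsd3b6 promoter, chr3:98814394-98814693, minus strand: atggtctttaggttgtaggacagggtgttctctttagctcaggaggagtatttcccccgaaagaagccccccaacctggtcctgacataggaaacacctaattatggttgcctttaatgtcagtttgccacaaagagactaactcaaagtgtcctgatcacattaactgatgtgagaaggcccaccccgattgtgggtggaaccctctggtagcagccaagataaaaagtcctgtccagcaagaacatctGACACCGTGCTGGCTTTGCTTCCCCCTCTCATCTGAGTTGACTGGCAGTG
Hsd17b3 promoter, chr13:64089152-64089451, minus strand: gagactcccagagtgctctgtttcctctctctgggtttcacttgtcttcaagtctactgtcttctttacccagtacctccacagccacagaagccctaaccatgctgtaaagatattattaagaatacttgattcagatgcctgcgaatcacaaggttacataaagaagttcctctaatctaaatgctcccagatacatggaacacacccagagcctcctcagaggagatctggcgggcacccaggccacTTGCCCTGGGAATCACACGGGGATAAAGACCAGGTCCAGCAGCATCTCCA

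RefSeq promoters were at hand for 6 of the 9 genes (these 4, *Insl3* and *Lhcgr*). The short motif bound by SF-1, written AAGGTCA or AAGGCCA and searched on both strands, was in 0 of the 6, and 3484 of 32851 promoters in the table (10.6%) held it. This says only that these letters were not in the windows searched.

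All 9 genes were detected in each of the 12 whole testis libraries. To set the genes side by side, CPM was divided by the length of the exons in kb. On this scale the WT mean levels ran in the order *Cyp17a1* (120 ± 16.9 CPM per kb, SD, n = 3), *Cyp11a1* (55.5 ± 8.37), *Hsd3b6* (22.6 ± 8.04), *Star* (18.8 ± 13.9), *Hsd17b3* (17.9 ± 11.6), *Hsd3b1* (11.8 ± 6.12), *Lhcgr* (6.64 ± 10.1), *Nr5a1* (6.18 ± 2.52) and *Insl3* (5.49 ± 4.02). *Cyp17a1* stood above *Cyp11a1*, and *Cyp11a1* above *Hsd3b6*, by more than their SDs, and from *Hsd3b6* down no gene differed from its neighbour beyond that spread. In CM the order began with *Cyp17a1* at 793 ± 247 CPM per kb, followed by *Cyp11a1* at 328 ± 142 and *Hsd3b6* at 167 ± 79.0, and *Star* at 64.3 ± 21.4 was above *Nr5a1* at 24.7 ± 16.3 by more than their SDs. *Insl3* and *Lhcgr* closed it with 13.9 ± 9.47 and 7.07 ± 4.65 CPM per kb.

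**Figure D1:**
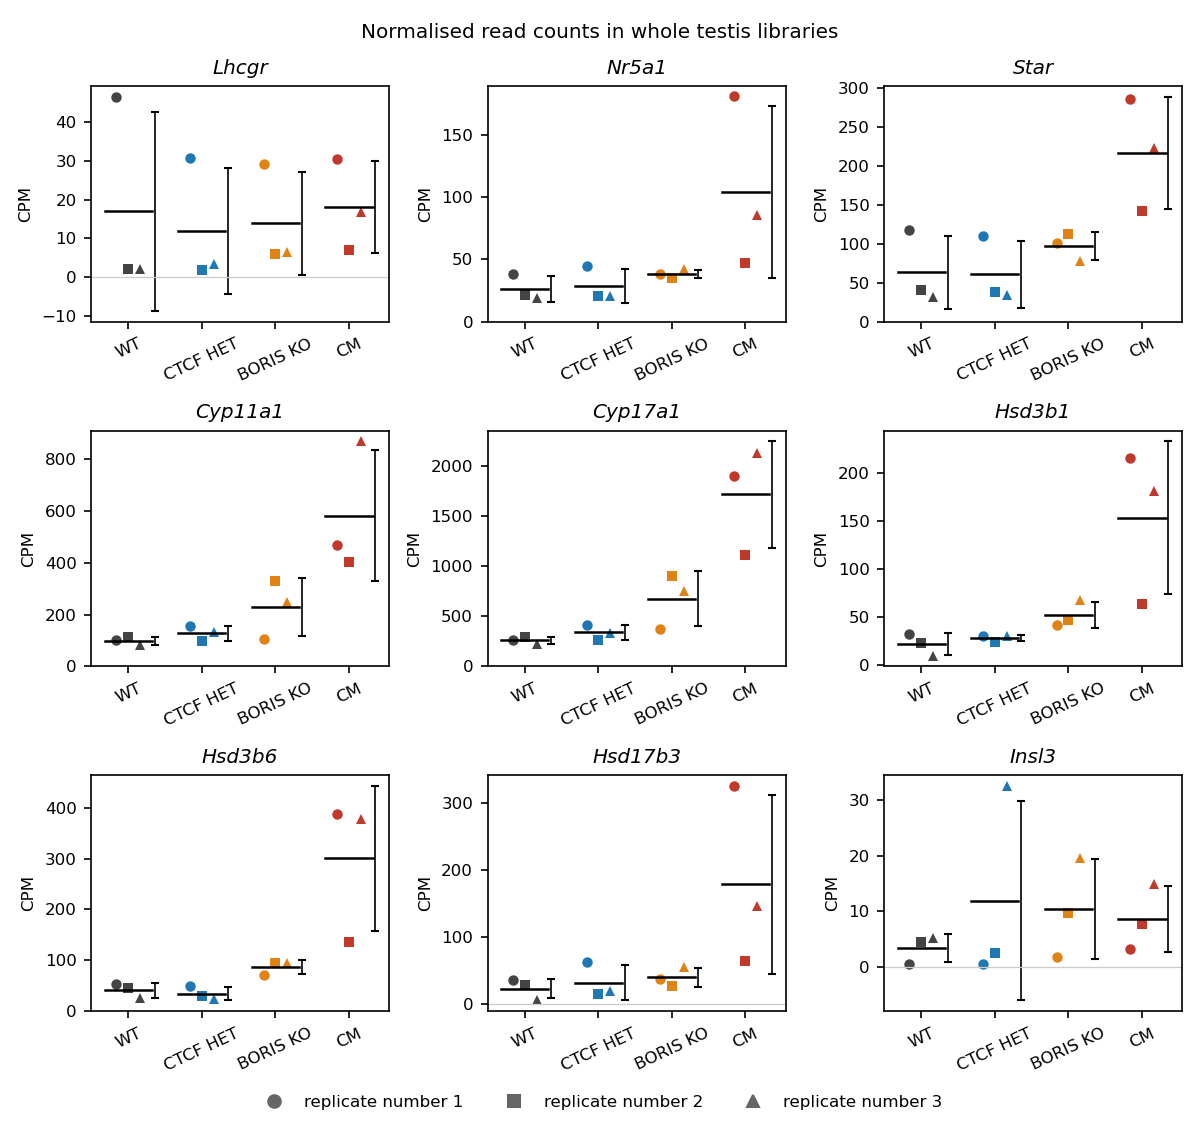
CPM of the 9 genes in whole testis, 1 panel per gene with its own linear axis; each symbol is 1 library, its shape gives the replicate number, the line the mean and the bar 1 SD of the 3 libraries of a genotype. In 7 of the panels all 3 CM libraries sit above all 3 WT libraries, while *Lhcgr* and *Insl3* are split by replicate number.

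In CM whole testis, 7 of the 9 genes rose over WT, by 3.38-fold (*Star*) to 7.64-fold (*Hsd17b3*), and these 7 covered the regulator SF-1, cholesterol import and every enzyme step listed above. *Lhcgr* and *Insl3* did not pass the test (edgeR quasi-likelihood test, Benjamini-Hochberg adjusted p under 0.05 and fold change above 2). This test took no account of the replicate number, and with that number as a block *Insl3* was called as well. Over all genes the same rule called 21.2% of 16378 tested, with 15.3% called higher, and the median log2 fold change was 2.54 for the 9 genes beside 0.00 for all. The 7 calls were lost together when WT replicate 2, WT replicate 3 or CM replicate 3 was left out, when 11, 3 and 4 genes of the whole table were called. In those 3 fits the fold changes of the 7 kept their direction. In bulk RNA of this kind, more cells of a type and more RNA per cell cannot be told apart.

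The receptor gene *Lhcgr* was at 46.6, 2.19 and 2.05 CPM in WT replicates 1, 2 and 3. Replicates of CTCF HET held 30.6, 1.77 and 3.35, BORIS KO 29.3, 5.94 and 6.39, and CM 30.5, 6.90 and 16.7. In every genotype the library with replicate number 1 was the highest, and the groups overlapped. CM and WT differed by 0.06 ± 1.05 on the log2 scale (SE, adjusted p = 0.97). Within replicate numbers the log2 ratio of CM to WT was -0.61, 1.66 and 3.03, and with the replicate number as a block the difference was 1.17 (adjusted p = 0.26). Without WT replicate 1 it was 3.06 (adjusted p = 0.043), which met the rule for a call.

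*Nr5a1* was at 38.5, 21.0 and 19.1 CPM in WT and at 44.5, 21.0 and 20.5 in CTCF HET. BORIS KO gave 38.2, 35.0 and 42.0 CPM, and CM 181, 46.8 and 85.9. The 3 CM libraries were above all others. *Nr5a1* rose 3.93-fold in CM (log2 fold change 1.97 ± 0.49, adjusted p = 0.024).

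*Star* was at 117, 40.8 and 32.2 CPM in WT and 286, 142 and 223 in CM. CTCF HET libraries held 111, 38.0 and 33.9 CPM, and BORIS KO libraries 101, 113 and 77.9. Replicate 1 was again the highest in WT and in CTCF HET, and still lay below the lowest CM library. *Star* rose 3.38-fold in CM (1.76 ± 0.49, adjusted p = 0.033). Without CM replicate 1 its adjusted p was 0.084.

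*Cyp11a1*, the side-chain cleavage enzyme, was at 101, 112 and 82.5 CPM in WT. CTCF HET libraries held 154, 97.8 and 132, BORIS KO 107, 331 and 249, and CM 469, 405 and 871. CM libraries were above every other library, and 2 of the 3 BORIS KO libraries were above WT. The rise in CM was 5.83-fold (2.54 ± 0.34, adjusted p = 0.015).

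*Cyp17a1*, the most abundant of the 9, was at 260, 297 and 224 CPM in WT. The CTCF HET group had 413, 267 and 335, BORIS KO 373, 905 and 751, and CM 1903, 1114 and 2135. WT, BORIS KO and CM libraries did not overlap, in that order of level. The rise in CM was 6.52-fold (2.70 ± 0.31, adjusted p = 0.015).

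*Hsd3b1* was at 32.6, 23.2 and 10.1 CPM in WT and at 215, 63.6 and 181 in CM. CTCF HET had 30.4, 24.6 and 30.3 CPM and BORIS KO 42.0, 47.3 and 67.6. Its paralog *Hsd3b6* was at 52.4, 45.2 and 24.5 CPM in WT. Libraries of CTCF HET gave 48.7, 28.8 and 23.9, BORIS KO 70.2, 95.2 and 93.6, and CM 388, 136 and 377. For both, CM replicate 2 was the lowest of its group, and all BORIS KO libraries lay above WT. In CM *Hsd3b1* rose 6.85-fold (2.78 ± 0.53, adjusted p = 0.016) and *Hsd3b6* 7.28-fold (2.86 ± 0.45, adjusted p = 0.015).

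*Hsd17b3*, the last enzyme before testosterone, was at 35.1, 27.5 and 6.41 CPM in WT. CTCF HET preparations had 62.7, 14.5 and 18.7, BORIS KO 36.7, 26.8 and 55.4, and CM 326, 63.8 and 147. CM replicate 1 was far above CM replicate 2, and all CM libraries were above all others. The rise was 7.64-fold (2.93 ± 0.70, adjusted p = 0.022), and its adjusted p was 0.073 without CM replicate 1.

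The hormone gene *Insl3* was at 0.566, 4.44 and 5.25 CPM in WT. CTCF HET libraries held 0.579, 2.51 and 32.5, BORIS KO 1.69, 9.64 and 19.7, and CM 3.29, 7.63 and 14.96. Here the library with replicate number 1 was the lowest in every genotype, and the groups overlapped. CM differed from WT by 1.35 ± 0.77 on the log2 scale (adjusted p = 0.22). With the replicate number as a block the difference was 1.54 ± 0.35 (adjusted p = 0.004), a call. *Jak3*, which shares exon sequence with *Insl3*, was at 27.5, 11.3 and 16.3 CPM in WT and 45.4, 11.7 and 17.2 in CM, and replicate 1 was its highest library, the reverse of *Insl3*.

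Within replicate numbers, the CM library was above the WT library of the same number for all 9 genes and all 3 numbers except *Lhcgr* at number 1. The log2 ratios were 2.87, 1.91 and 3.26 for *Cyp17a1*, 2.21, 1.86 and 3.40 for *Cyp11a1*, and 3.22, 1.21 and 4.52 for *Hsd17b3*.

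Against CTCF HET, the same 7 genes rose in CM, where the rule called 14.3% of 16531 genes and 10.4% as higher. The rises ran from 3.52-fold for *Star* (log2 1.81 ± 0.48, adjusted p = 0.037) and 3.59-fold for *Nr5a1* (1.84 ± 0.50, 0.040) to 8.75-fold for *Hsd3b6* (3.13 ± 0.45, 0.020). *Cyp11a1* rose 4.48-fold, *Cyp17a1* 5.00-fold, *Hsd3b1* 5.30-fold and *Hsd17b3* 5.48-fold. *Lhcgr* differed by 0.56 ± 0.91 and passed with the replicate block (1.27 ± 0.42, adjusted p = 0.035). *Insl3* differed by -0.48 ± 1.12, a sign that turned to 2.50 without CTCF HET replicate 3, which alone held 32.5 CPM. As against WT, all 7 calls were lost without CTCF HET replicate 2, CTCF HET replicate 3 or CM replicate 3, when 0, 8 and 2 genes of the whole table were called.

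The single mutants were compared with WT to see each mutation alone. In CTCF HET 0 of the 9 genes were called by edgeR and 0 by DESeq2, and the log2 differences ran from -0.50 for *Lhcgr* to 1.83 for *Insl3*, with *Cyp17a1* at 0.37 ± 0.20 and *Cyp11a1* at 0.37 ± 0.21. None of the 9 had an unadjusted p under 0.05 there. The rule called 0.00621% of 16097 genes, 1 gene, with 424 at an unadjusted p under 0.05 and 3 called by DESeq2.

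In BORIS KO 0 of the 9 genes were called by edgeR, where the rule called 0.0551% of 16344 genes (9 genes, with 2717 at an unadjusted p under 0.05). *Cyp17a1* stood at 2.64 times its WT level (1.40 ± 0.31, adjusted p = 0.20), *Hsd3b1* at 2.41 (1.27 ± 0.38, 0.21), *Cyp11a1* at 2.36 (1.24 ± 0.37, 0.21) and *Hsd3b6* at 2.15 (1.10 ± 0.27, 0.20). These 4 had an unadjusted p of 0.0018 to 0.0093 and were the 4 that DESeq2 called, with adjusted p from 0.0045 to 0.049. DESeq2 called 225 genes in all, 0.918% of those tested as higher. For *Star*, *Nr5a1* and *Hsd17b3* the log2 differences were 0.64 ± 0.42, 0.56 ± 0.26 and 0.80 ± 0.51, and for *Lhcgr* -0.27 ± 1.18. *Insl3* differed by 1.68 ± 0.94 (adjusted p = 0.39) and with the replicate block by 1.54 ± 0.23 (adjusted p = 0.009), a call. The blocked fit called 1.26% of genes as higher. Without BORIS KO replicate 1, edgeR called *Cyp17a1* (adjusted p = 0.013) and *Cyp11a1* (0.027), and 0.186% of genes as higher.

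CM against BORIS KO asked what the loss of a *Ctcf* allele added to that of *Boris*. By edgeR 0 of the 9 genes were called, with 0.006% of 16655 genes called (1 gene, 3594 at an unadjusted p under 0.05). The log2 differences were 2.13 ± 0.54 for *Hsd17b3*, 1.76 ± 0.39 for *Hsd3b6*, 1.51 ± 0.42 for *Hsd3b1*, 1.41 ± 0.43 for *Nr5a1*, 1.31 ± 0.45 for *Cyp11a1*, 1.31 ± 0.39 for *Cyp17a1* and 1.12 ± 0.30 for *Star*, all with adjusted p from 0.14 to 0.16. Of these 7, all but *Hsd3b1* had CM libraries above every BORIS KO library. The replicate block called 6 of them, with adjusted p from 0.030 to 0.045 and 0.053 for *Cyp17a1*, where it called 3.58% of all genes as higher, and DESeq2 called all 7, with 4.53% of all genes higher. Without CM replicate 2, the CM library with the lowest levels of most of the 9 genes, edgeR called 5, and 6.66% of 17182 genes as higher.

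Whether the change in CM differed from the sum of the changes in the single mutants was tested with all 4 genotypes in one fit. By edgeR 0 of the 9 genes were called, as were 0.0% of 17185 genes (1713 at an unadjusted p under 0.05, 27 called by DESeq2, none of the 9). The excess in CM over additivity was largest for *Hsd3b6* (2.07 ± 0.56 on the log2 scale, unadjusted p = 0.0028, adjusted p = 0.47). For *Star*, *Cyp11a1*, *Cyp17a1*, *Hsd3b1*, *Hsd17b3* and *Nr5a1* it was 0.97 to 1.70, for *Lhcgr* 0.88 ± 1.69 and for *Insl3* -2.09 ± 1.70.

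**Figure D2:**
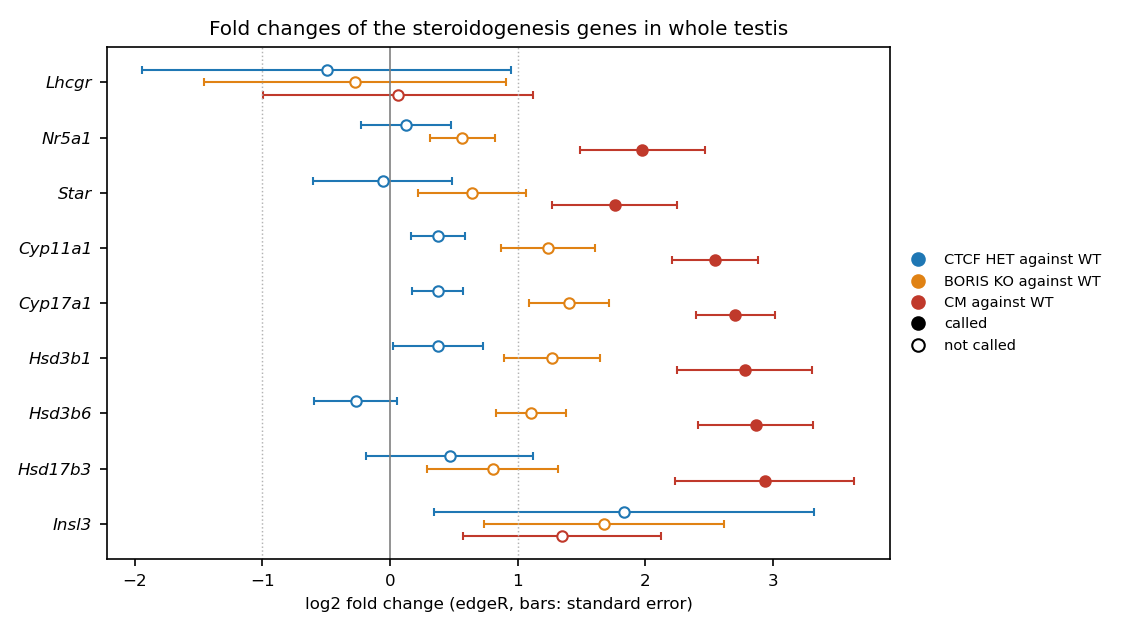
Log2 fold change against WT in whole testis for the 9 genes, with bars of 1 SE from edgeR; filled points passed the rule of adjusted p under 0.05 and fold change above 2, and dotted lines mark a change of 2-fold. The 7 filled points are all CM, from 1.76 to 2.93, and the BORIS KO points of 8 of the 9 genes lie to the right of 0 without passing.

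The rest of the pathway was read from lists of related genes, with the CM against WT test in whole testis. Their counts rest on the same libraries as the 7 calls above, since at most 11 genes of the whole table were called without any 1 of those 3 libraries. Over all 16378 genes tested there, 15.3% were called higher and 966 genes lower. Of 9 genes that supply cholesterol, 6 rose and 1 fell: *Tspo*, an outer mitochondrial membrane protein, rose 5.90-fold, *Soat1*, which esterifies cholesterol, rose 2.81-fold and *Nceh1*, which frees it, 4.13-fold. *Lipe*, the hormone-sensitive lipase, fell from 482 ± 95.8 to 169 ± 30.1 CPM. The median log2 fold change of this list was 1.72, but its summed CPM stood at 0.838 of WT. Most of the WT sum was *Lipe* alone, at 482 of 651 CPM in WT and 169 of 546 in CM. Of 4 tested electron donors of the cytochromes 2 rose, the mitochondrial *Fdxr* (3.61-fold) and the microsomal *Por* (2.35-fold). Of 10 other tested steroid enzymes 6 rose, among them *Sult1e1*, the estrogen sulfotransferase (9.69-fold), *Hsd3b2* (5.81-fold) and *Hsd3b3* (5.03-fold), which share sequence with *Hsd3b1* and *Hsd3b6*, and *Hsd17b7* (4.09-fold). The median log2 fold changes were 1.35 for the donors and 1.90 for the enzymes.

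Of 10 tested regulators of steroid genes 4 rose and 2 fell, beside the calls over all genes given above. *Gata4*, a zinc finger activator, rose 2.74-fold and *Nr2f2*, a nuclear receptor of stromal and Leydig cells, 4.42-fold, whereas *Nr4a1*, an orphan receptor induced by luteinizing hormone, fell from 10.97 ± 1.52 to 4.86 ± 1.29 CPM. The median log2 fold change of the regulators was 1.08. Of 8 tested genes of Leydig cell signalling 7 rose, with the prolactin receptor *Prlr* at 31.0 ± 11.5 CPM in WT and 206 ± 107 in CM (6.53-fold) and the Hedgehog receptor *Ptch1* at 7.05-fold. *Esr1* rose 5.51-fold, *Igf1r* 5.13-fold and *Gnas* 2.97-fold, and the median log2 fold change of that list was 2.22. Of 6 further Leydig cell markers 5 rose: the kallikreins *Klk1b27* (23.5-fold, from 2.85 ± 0.93 to 69.5 ± 41.8 CPM), *Klk1b24* (19.2-fold) and *Klk1b21* (18.2-fold), the fatty acid binding protein *Fabp3* (7.28-fold) and *Ptgds*, a prostaglandin synthase (6.59-fold). Their median log2 fold change was 3.52, against 2.54 for the 9 genes.

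Markers of other cells were among the called genes as well, beside the 15.3% of all genes called higher and the 966 of 16378 called lower. Of 9 Sertoli cell markers 3 rose (*Clu*, *Sox9* and *Amh*), of 11 macrophage markers 9 (*Csf1r* 4.40-fold, *C1qb* 4.33-fold), of 6 fibroblast markers 4 (*Col1a2* 3.30-fold, *Dcn* 3.11-fold), of 7 endothelial markers 2, of 6 peritubular myoid markers 1 and of 7 spermatogonial markers 1 (*Zbtb16*). The peritubular myoid and spermatogonial counts are near the share over all genes. Of 7 spermatocyte markers 0 were called, and of 8 spermatid markers 2 fell (*Gapdhs* and *Prm2*, at 0.350 and 0.414 of WT). None of these lists but the red blood cell list had a marker at 0 in whole testis, where 3 globin genes were at 0 in WT and 4 in CM.

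The summed level of the 9 genes was 406 to 684 CPM in WT. It reached 496 to 895 CPM with CTCF HET, 799 to 1568 with BORIS KO and 1986 to 4051 with CM, 5.92 times WT in the mean. Summed in the same way, the further Leydig markers stood at 6.46 times WT (69.4 to 134 CPM in WT, 308 to 1121 in CM), the signalling genes at 4.21, the fibroblast markers at 3.14 (72.3 to 127, 217 to 350) and the Sertoli markers at 2.80 (262 to 351, 605 to 1076). Most of the Sertoli sum was *Clu* alone, at 210 ± 46.2 CPM in WT and 707 ± 231 in CM. Peritubular myoid markers were at 1.71, endothelial at 1.46, spermatogonial at 1.36 and macrophage markers at 1.25 times WT. The macrophage sum (626 ± 94.3 CPM in WT, 782 ± 166 in CM) lay mostly in genes other than the called *Csf1r*, *C1qb* and *Mrc1*. These were at 27.6, 15.1 and 34.4 CPM in WT and 124, 66.8 and 103 in CM. Spermatocyte markers stood at 0.803 (1042 to 1070 CPM in WT, 726 to 1003 in CM) and spermatid markers at 0.500 (15336 to 23509, 4566 to 12600). In BORIS KO the ratios to WT were 2.24 for the 9 genes, 2.32 for the further Leydig markers, 1.58 for Sertoli and 1.08 for spermatid markers. The part of these shifts between cell types in the rise of the 9 genes was not tested.

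**Figure D3:**
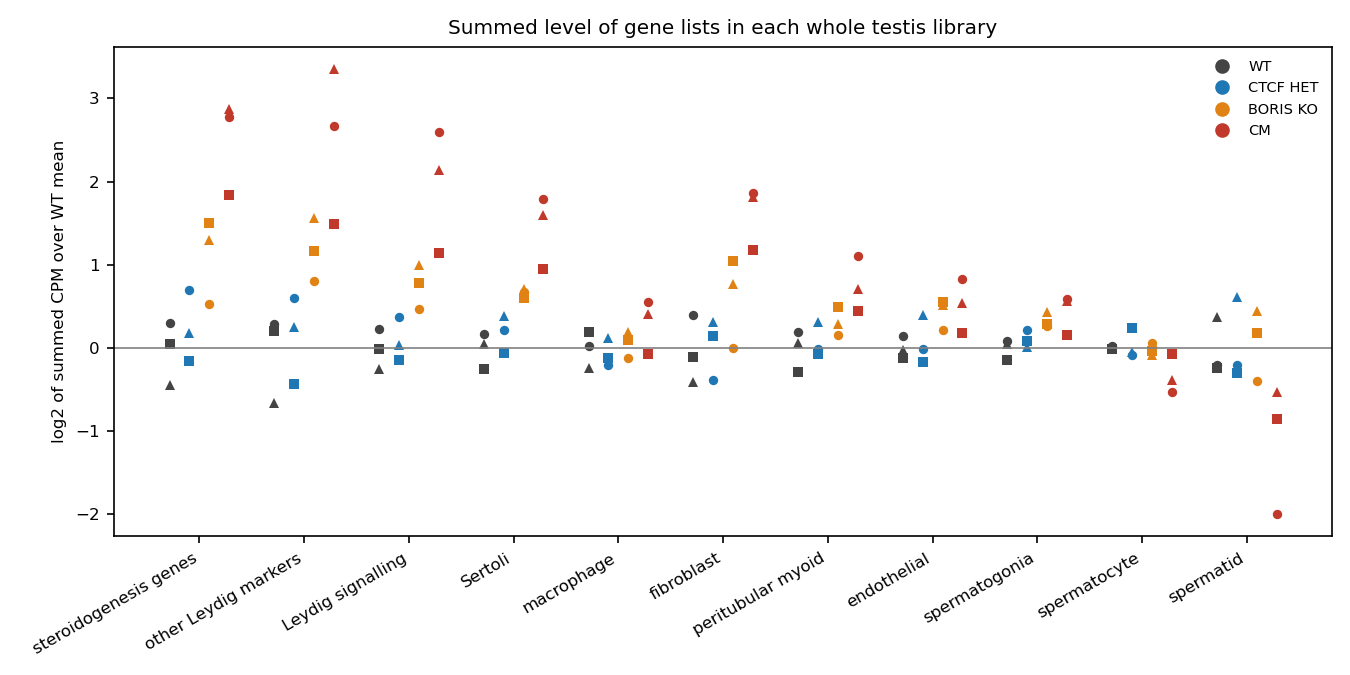
Summed CPM of each gene list in each whole testis library, as log2 of the ratio to the mean of the 3 WT libraries; colour gives the genotype and shape the replicate number (circle 1, square 2, triangle 3). The CM libraries lie highest for the steroidogenesis genes and the further Leydig markers (mean ratios 5.92 and 6.46), and lowest for spermatid markers (0.500).

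The genes outside the list whose pattern over the 12 whole testis libraries was most like the mean pattern of the 9 were found by the root mean square difference of their centred log2 CPM. They were *Enpp5* (0.147 log2 units), *Tspan15* (0.162), *Nceh1* (0.167), *Acsbg1* (0.172), *Reep3* (0.176), *Fads1* (0.180), *Idh2* (0.183), *Aldh2* (0.183), *Retsat* (0.187) and *Igfbp2* (0.193). *Acsbg1*, an acyl-CoA synthetase, was at 135 ± 56.3 CPM in WT and 667 ± 317 in CM, and *Fads1*, a fatty acid desaturase, at 39.1 ± 7.13 and 225 ± 96.0. The 9 genes were themselves farther from their mean: *Hsd3b1* was nearest at 0.308, *Cyp17a1* and *Nr5a1* were at 0.344, and *Lhcgr* (1.25) and *Insl3* (1.62) were farthest.

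In the purified germ cells the 9 genes other than *Star* stood at 2.13 CPM or less in every library. These libraries were counted in another table, from poly(A) RNA on another sequencer, so levels in CPM are set beside those of whole testis without a test. The summed level of the 9 genes with *Star* included was 1.28 to 1.58 CPM in WT round spermatids and 9.39 to 10.1 in WT spermatocytes. Most of it was *Star*, with a mean of 0.996 CPM in WT round spermatids and 9.26 in WT spermatocytes. The CTCF HET and CM labels were not borne out by *Ctcf* in every preparation: it was at 32.0 to 33.8 CPM in WT spermatocytes, 31.3 to 50.5 in those labelled CTCF HET and 32.4 to 83.6 in those labelled CM, and at 39.8 to 177 CPM in round spermatids labelled CM beside 29.6 to 49.7 in WT. Genes with a count numbered 12018 to 13406 in spermatocyte libraries labelled CTCF HET and 14145 to 16666 in those labelled CM, against 17631 to 17970 in WT and BORIS KO. Round spermatid replicate 1 labelled CM stood apart, with the 177 CPM of *Ctcf*. *Ctcfl* was still counted in round spermatids labelled BORIS KO, at 2.12 to 2.46 CPM (149 to 184 counts) beside 2.90 to 5.11 in WT (174 to 252 counts), and in those labelled CM at 1.11 to 2.63 (73 to 204 counts), so the *Boris* genotype was not borne out by an absence of its RNA. In WT spermatocytes the summed spermatocyte markers were at 5474 to 6361 CPM, the spermatid markers at 33.4 to 34.0 and the further Leydig markers at 1.39 to 1.44. In WT round spermatids the spermatid markers were at 1230 to 1396 CPM, below the spermatocyte markers at 1815 to 2272, and the further Leydig markers were at 1.00 to 2.83. Directions below are those of the labels.

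*Star* in spermatocytes was at 9.47 and 9.05 CPM in WT. The CTCF HET group had 9.58, 6.38 and 7.63, BORIS KO 7.26, 7.63 and 7.83, and CM 8.05, 9.33 and 9.27. In round spermatids it was at 1.10, 0.770 and 1.11 CPM in WT, and from 0.889 to 1.83 in the other genotypes. WT spermatocytes thus held more than WT round spermatids in every library. The level in round spermatids was 0.105 of that in spermatocytes (log2 -3.25 ± 0.22, adjusted p = 9.4e-06), and *Star* was the 1 gene called of the 3 that passed the filter on low counts, where 52.3% of 16052 genes were called. *Cyp17a1* and *Nr5a1* did not differ past the threshold between the cell types. In BORIS KO spermatocytes *Star* was lower than in WT by less than the 2-fold rule (-0.29 ± 0.09, adjusted p = 0.014).

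**Figure D4:**
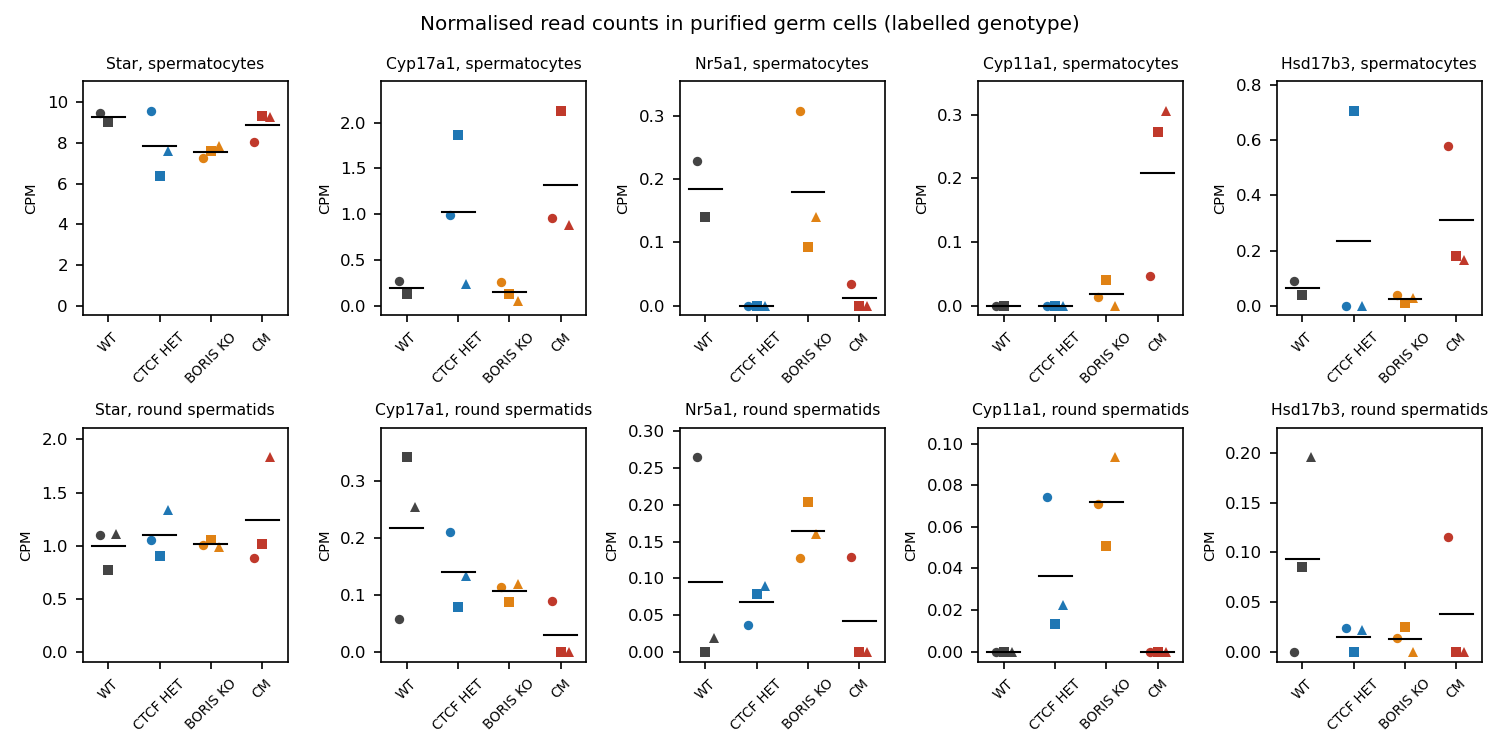
CPM of 5 of the genes in spermatocytes (upper panels) and round spermatids (lower panels) by labelled genotype, each panel with its own linear axis; each symbol is 1 library, its shape the replicate number (circle 1, square 2, triangle 3), and the line the mean. *Star* sits at 6.38 to 9.58 CPM in spermatocytes, while the other 4 genes reach at most 2.13 CPM.

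*Cyp17a1* had 21 and 10 counts in WT spermatocytes (0.266 and 0.127 CPM). It had 56, 95 and 11 in CTCF HET (0.988, 1.87 and 0.232 CPM), 19, 13 and 4 in BORIS KO (0.254, 0.133 and 0.0561 CPM) and 83, 164 and 63 in CM (0.964, 2.13 and 0.877 CPM). The libraries labelled CM were above all those of WT and BORIS KO. Against BORIS KO, where the rule called 24.2% of 14292 genes, *Cyp17a1* passed the filter on low counts only with the CM libraries. BORIS KO replicate 3 was itself below that filter. The difference there (log2 3.15 ± 0.67) met the rule for a call but is given as a description. Over WT *Cyp17a1* differed by 2.77 ± 0.69 (adjusted p = 0.075), which DESeq2 called (adjusted p = 0.0031), as did edgeR without CM replicate 1 (0.023).

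*Hsd17b3* had 7 and 3 counts in WT spermatocytes. Libraries of CTCF HET gave 0, 36 and 0, BORIS KO 3, 1 and 2, and CM 50, 14 and 12. It passed the filter on low counts against BORIS KO only through the CM libraries, so its difference there (log2 3.52 ± 1.00) is given as a description. The highest of these values, 2.13 CPM for *Cyp17a1*, stands beside 1114 to 2135 CPM in CM whole testis.

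*Nr5a1* had 18 and 11 counts in WT spermatocytes and 23, 9 and 10 in BORIS KO, but 0 in each of the 3 libraries labelled CTCF HET and 3, 0 and 0 in those labelled CM. A count of 0 allowed up to 0.0562 CPM (3 counts) in a CTCF HET library. In CM against WT *Nr5a1* passed the filter on low counts only through the WT libraries. The difference there (log2 -3.73 ± 1.85) was not called and is given as a description, not as a test. The libraries labelled CTCF HET and CM were those with the fewest genes detected. *Cyp11a1* had 0 counts in the WT and CTCF HET spermatocyte libraries, 1, 4 and 0 in BORIS KO and 4, 21 and 22 in CM, which gives no fold over a group at 0 (adjusted p = 0.13). *Lhcgr* had 16, 0 and 34 counts in CM and 1 and 0 in WT. *Hsd3b1* had at most 15, *Hsd3b6* at most 5 and *Insl3* at most 3 counts in any spermatocyte library.

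In round spermatids *Insl3* had 0 counts in all 12 libraries, which allowed up to 0.0304 to 0.0628 CPM in a library. *Lhcgr* had 1 count in all, *Hsd3b6* at most 3 and *Hsd3b1* at most 4 in a library. *Cyp17a1* had 5, 16 and 13 counts in WT. CTCF HET preparations had 17, 6 and 6, BORIS KO 8, 7 and 9, and CM 7, 0 and 0. *Nr5a1* had 23, 0 and 1 in WT and 9, 16 and 12 in BORIS KO. The spread within WT was thus as wide as any difference from it. *Cyp11a1* had 0 in WT and CM, 6, 1 and 1 in CTCF HET and 5, 4 and 7 in BORIS KO. Genes with a count numbered 14932 to 16670 in round spermatid libraries labelled CM, against 17504 to 17985 in WT.

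The other germ cell comparisons called 0 of the 9 genes by edgeR. Few of the 9 passed the filter on low counts, so these comparisons say little about them. In round spermatids 2 were tested in CTCF HET against WT (5.39% of all genes called), 2 in BORIS KO (26.9%), and 1, *Star*, in CM against WT (0.00654%), against BORIS KO (18.4%) and against CTCF HET (0.0%, with 3332 of 15337 genes at an unadjusted p under 0.05 and 1276 called by DESeq2). In spermatocytes 2 were tested in CTCF HET against WT (4.89%), 3 in BORIS KO (8.43%), 6 in CM against WT (0.434%) and 3 in CM against CTCF HET (0.177%). For non-additivity 3 were tested in round spermatids (31.6%) and 6 in spermatocytes (2.83%). Unadjusted p fell under 0.05 in 4 of these tests: *Star* in BORIS KO spermatocytes (0.0067), *Cyp17a1* (0.0057) and *Cyp11a1* (0.027) in CM against WT spermatocytes, and *Lhcgr* for non-additivity there (0.048). *Cyp11a1* and *Lhcgr* passed the filter on low counts there only through the CM libraries, so their values are given as a description and not as a test.

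Chromatin was mapped in germ cell-enriched preparations too, and each peak list is a single list per antibody and genotype with no replicate error. CTCF and RNA polymerase II (Pol2) were mapped in WT and CM, trimethylated lysine 4 of histone H3 (H3K4me3), a mark of active promoters, likewise, and BORIS in WT. Few of the 9 genes had a peak within 2 kb of an annotated start. WT CTCF had 1 (*Cyp17a1*, beside 31.6% of all 21684 genes), CM CTCF 0 (13.7%) and WT BORIS 0 (15.5%). WT Pol2 had 1 (*Star*, 41.2%), CM Pol2 had 2 (*Star* and *Insl3*, 48.4%), WT H3K4me3 had 1 (*Nr5a1*, 54.2%) and CM H3K4me3 had 1 (*Nr5a1*, 58.1%). *Cyp11a1*, *Hsd3b1*, *Hsd3b6*, *Hsd17b3* and *Lhcgr* had none in any list. An unlisted peak means only that none passed the authors' threshold in these preparations.

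*Star* carried the strongest Pol2 peaks of the 9 loci. The WT list held chr8:26919228-26921146 (score 72.1) and chr8:26921579-26930116 (score 637), and the CM list held a single peak over the whole gene, chr8:26918089-26931374 (score 895), above 91.6% of the CM peaks. Scores of separate lists were not compared by a test. The larger WT peak and the CM peak ran on past the 3′ end of *Star* into *Ash2l*, which ends there on the other strand, so these peaks cannot be given to *Star* alone. The smaller WT peak lay inside *Star*, 254 bp from an annotated start. No H3K4me3 peak lay within 10 kb of *Star* in either genotype.

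The only CTCF peak near a start was in *Cyp17a1*, at chr19:46745272-46745490 in WT (height 198, above 28.1% of WT CTCF peaks), inside the gene and 291 bp from an annotated start. The CM list had no peak there. It is shown because it is the sole CTCF or BORIS peak within 2 kb of a start of the 9 genes. The CTCF core motif was searched as CCNNNAGNNGGC on both strands and would stand in capitals. The sequences of peaks are the plus strand of mm9.
Cyp17a1 WT CTCF peak, chr19:46745272-46745490: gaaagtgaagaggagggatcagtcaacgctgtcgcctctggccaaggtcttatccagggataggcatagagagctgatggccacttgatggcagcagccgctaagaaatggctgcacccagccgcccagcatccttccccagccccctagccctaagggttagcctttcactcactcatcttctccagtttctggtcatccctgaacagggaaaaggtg

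These letters were not in this peak. Within 100 bp at the summit they were in 45.5% of 34625 WT CTCF peaks, in 60.4% of 21525 CM CTCF peaks and in 48.9% of 7652 WT BORIS peaks. Beyond the 3′ end of *Cyp17a1* the WT list had Pol2 at chr19:46739276-46741108 (score 183), the CM list Pol2 at chr19:46737807-46739166 (score 86.4), and the WT list H3K4me3 peaks at chr19:46739234-46739951 and chr19:46740144-46740772 (scores 93.1 and 81.4), and no CM H3K4me3 peak lay within 10 kb. A CTCF peak downstream was listed in both, at chr19:46731994-46732437 in WT (height 813) and chr19:46732171-46732447 in CM (height 335).

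*Nr5a1* was the gene with the most peaks. Downstream of its 3′ end, WT CTCF (chr2:38544144-38545262, height 2503, above 89.3% of the list) and WT BORIS (chr2:38544376-38544609, height 343, above 92.3%) overlapped, and CM CTCF was listed there with height 107. The heights of the lists are not on a stated common scale, so they were not compared. Both a second WT CTCF peak (chr2:38547074-38547427, height 644) and one inside the gene (chr2:38555707-38555959, height 131) were without a CM counterpart. The BORIS peak and the peak inside the gene are shown because both hold the core motif, in capitals: it began at position 38544479 on the minus strand, 3 bp from the summit, and at 38555848 on the plus strand, 41 bp from the summit.
Nr5a1 WT BORIS peak, chr2:38544376-38544609: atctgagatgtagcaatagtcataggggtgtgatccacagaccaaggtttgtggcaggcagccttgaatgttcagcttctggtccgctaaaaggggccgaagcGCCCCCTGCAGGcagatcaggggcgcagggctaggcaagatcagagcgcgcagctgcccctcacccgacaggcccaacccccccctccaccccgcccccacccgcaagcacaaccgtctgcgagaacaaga
Nr5a1 WT CTCF peak inside the gene, chr2:38555707-38555959: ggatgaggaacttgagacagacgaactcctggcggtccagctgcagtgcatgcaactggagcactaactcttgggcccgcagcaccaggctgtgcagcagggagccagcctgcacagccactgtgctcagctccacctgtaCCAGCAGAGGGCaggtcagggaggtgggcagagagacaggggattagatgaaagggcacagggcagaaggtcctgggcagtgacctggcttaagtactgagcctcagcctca

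At the start of *Nr5a1*, H3K4me3 was at chr2:38567865-38568388 in WT (score 79.0), while CM had peaks at chr2:38568940-38570368 (score 179), over the most upstream start, and at chr2:38566936-38568185 (score 82.1). A long non-coding RNA gene, *4933433P16Rik* (chr2:38568196-38576158), lies there on the other strand. It overlaps the WT peak and the CM peak with score 179, so these cannot be given to *Nr5a1* alone. Pol2 was listed inside *Nr5a1* only in CM (chr2:38553629-38554712, score 69.4). The CM peak counted for *Insl3* (chr8:74214544-74215778, score 66.4) lay beyond its 3′ end over *B3gnt3*, a gene on the other strand, as did 2 further CM Pol2 peaks. Near *Insl3* the WT lists also held a CTCF peak (chr8:74219273-74219738, height 1249) with BORIS at chr8:74219488-74219619 (height 55). Upstream of *Hsd17b3*, CTCF was listed 4210 bp from a start in WT (height 669) and 4254 bp in CM (height 469), and 9830 bp away WT CTCF (height 677) and BORIS (height 47) met. *Lhcgr* had 1 WT CTCF peak, inside the gene at chr17:89152512-89152793 (height 110, above 5.17% of the list), *Cyp11a1* and *Hsd3b1* each 1 low CM Pol2 peak outside the gene (scores 53.6 and 52.8), and *Hsd3b6* none within 10 kb.

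**Figure D5:**
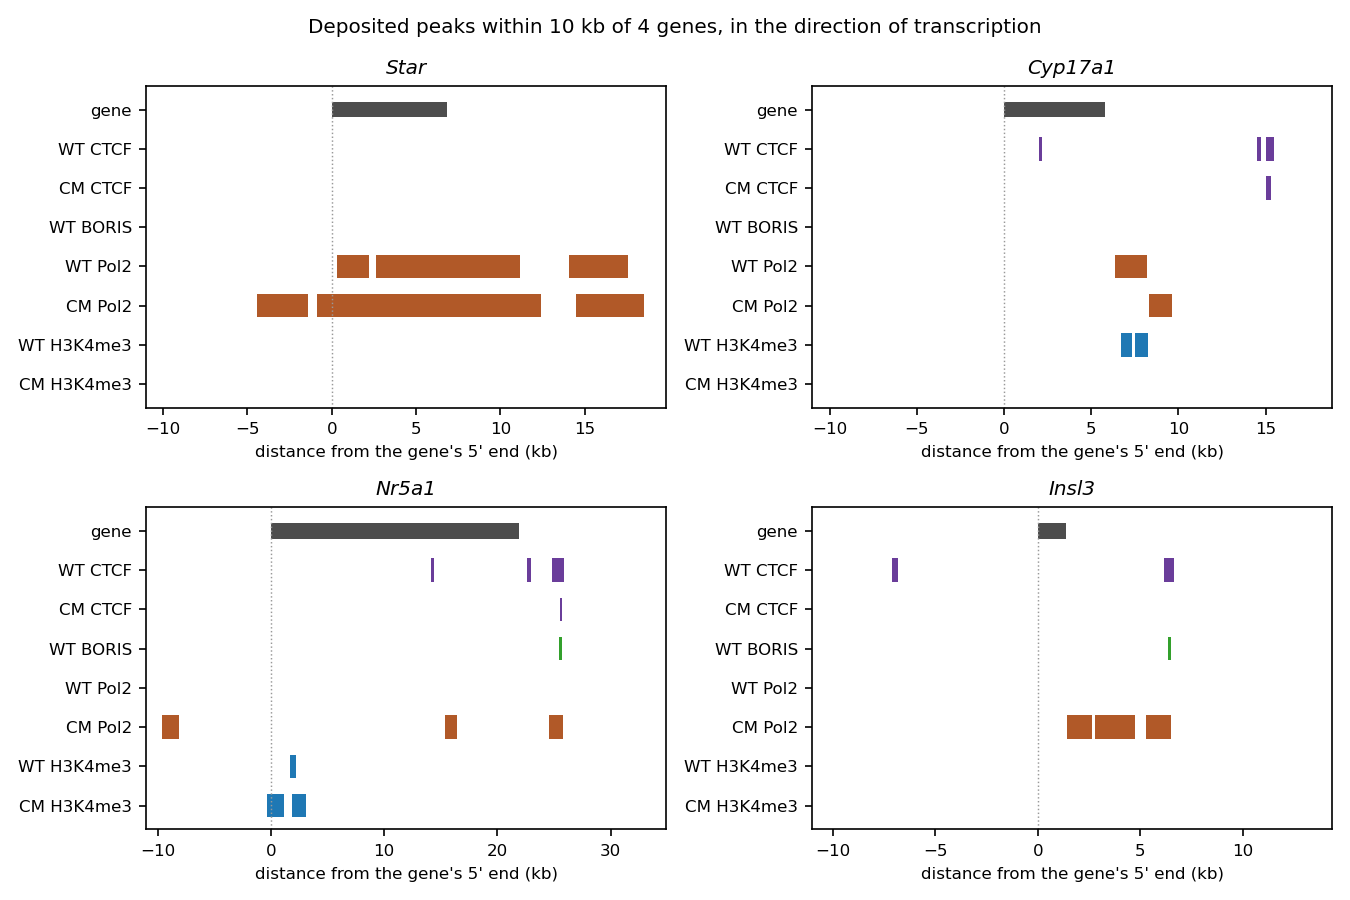
Deposited peaks from 10 kb before to 10 kb after *Star*, *Cyp17a1*, *Nr5a1* and *Insl3*, drawn in the direction of transcription with the distance from the 5′ end of the gene in kb; each bar is 1 listed peak and its length the width of the peak. Pol2 peaks overlap *Star* in both genotypes and run on past its 3′ end, and the 3 CM Pol2 peaks near *Insl3* begin after the end of the gene.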

How the data were processed

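RNA-seq of 35 libraries and 7 ChIP-seq peak lists were used as deposited, and no reads were realigned. The authors deposited raw counts per gene, not normalized, in 1 table for whole testis (rRNA-depleted RNA, Ion Proton, TopHat2 and Bowtie2 on mm9) and 1 for round spermatids and spermatocytes (elutriation and sorting, poly(A) RNA, HiSeq, STAR). The submitters' processing notes also name Cufflinks 2.0.0, Bowtie and DESeq2. The counting tool, its annotation and the use of strand are not given in the sources used here. Peaks were called by the authors on mm9 (Bowtie2, MACS and MACS2, PeakSplitter): for CTCF and BORIS they deposited positions, summits and heights, a signal of unstated normalization, and for Pol2 and H3K4me3 positions and a MACS score. The depth behind peaks is unknown.

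Counts were tested here with edgeR 4.0.16 (R 4.3.3): filterByExpr with at least 10 counts per library and 15 in total, TMM scaling, the robust quasi-likelihood F test between the 2 genotypes compared, and Benjamini-Hochberg adjustment over all genes tested. A gene was called at adjusted p under 0.05 and fold change above 2. CPM used TMM-scaled library sizes, and likeness a pseudocount of 0.5 CPM. A count of 0 was read as up to 3 counts, for counting error only. Each library of whole testis is a separate pool of mice, and for the sorted cells nothing in the labels says more than that the libraries are separate. Alternatives were DESeq2 1.42.0, RLE scaling, tests without the filter, a single fit of the 4 genotypes, a block for replicate number, the study's thresholds (adjusted p under 0.001 and fold change above 2), no fold threshold, leaving out each library and, added after seeing the data, DESeq2 with the study's thresholds. The fits were tested on simulated data. Residuals of same-numbered whole testis libraries from 2 genotypes correlated by 0.121 to 0.631, over 0.1 in 18 of 18 pairs, so the numbers were read as pairing those libraries. The main tests did not use this pairing, which entered only through the block for replicate number and the ratios within replicate numbers. Among round spermatids 4 of 18 pairs passed 0.1, and among spermatocytes 1 of 15.

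The 9 genes, the lists, the threshold and the rule for named genes were chosen with earlier results of these data known. Beside the 9, a gene of a list is named if it was called in CM against WT in whole testis and was among the 3 with the highest WT CPM or the 3 with the largest change of its list, and the 10 genes most like the 9 are named. *Jak3*, *Hsd3b2*, *Ash2l*, *B3gnt3* and *4933433P16Rik* are named as genes that overlap, share sequence with or adjoin one of the 9. A peak was placed at a start if at least 1 bp lay within 2 kb of a GENCODE vM1 start. RefSeq promoters (GRCm38.p6) were placed in mm9 by exact match of the whole sequence.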

Additional observations from a re-analysis of the deposited data

Results flagged for a closer look

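The CM libraries lay on opposite sides of WT for *Nr5a1* in 2 preparations, and only the difference in whole testis was called (edgeR adjusted p = 0.024). In spermatocytes *Nr5a1* passed the filter on low counts only through the WT libraries, so that difference is a description and not a test. In whole testis all 3 CM libraries were above all WT libraries, with a mean of 105 CPM in CM and 26.2 in WT. In spermatocytes all 3 libraries labelled CM were below both WT libraries, with a mean of 0.0116 CPM in CM and 0.184 in WT. The preparations were counted in separate tables and the difference was not tested. The spermatocyte values rest on 18 and 11 counts in WT and 3, 0 and 0 in CM, where 14145 to 16666 genes were detected per library against 17631 to 17683 in WT.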

How the results depend on the processing

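Of 339 counts and mean levels over the comparisons and their alternatives, 296 were kept (counts within 1.5 times, levels within 1 SD) and 43 moved. Direction played no part in that label, and a count of 0 that stayed at 0 was kept. Of 1047 log2 fold changes of single genes 903 kept their direction and side of the threshold. Among the others 52 lost and 35 gained a call, 57 moved without one and 0 calls reversed. Where a value moved, the cause was not tested.

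In whole testis, DESeq2 called 4 of the 9 genes in BORIS KO against WT and 7 in CM against BORIS KO, the replicate block 1 and 6, and one fit of all 4 genotypes 1 in CM against BORIS KO. The block changed no call beyond those given above. With the study's thresholds edgeR called 0 in CM against WT and in CM against CTCF HET, and 0 genes of any kind. DESeq2 with those thresholds, an alternative chosen after seeing the data, called 6 and 4 of the 9, among 1635 and 914 genes, and in CM against BORIS KO spermatocytes 1 of the 9. Leaving out 1 library gave 0 to 2 in BORIS KO against WT, 0 to 8 in CM against WT, 0 to 5 in CM against BORIS KO and 0 to 8 in CM against CTCF HET. Over all genes, DESeq2 and the block called 225 and 273 in BORIS KO against WT (9 as reported), 1032 and 1004 in CM against BORIS KO (1), 3 and 18 in CTCF HET (1) and 27 and 4 for non-additivity (0), and the block called 3911 in CM against CTCF HET (2361). The fit of all 4 genotypes called 304 in CM against BORIS KO.

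In round spermatids, leaving out the filter called 1 in BORIS KO against WT and 1 for non-additivity, and leaving out 1 library gave 0 to 2, with 0 to 1 for non-additivity and for CM against BORIS KO. DESeq2 called 1387 genes in CM against WT (1). In spermatocytes, one fit of all genotypes called 1 in CTCF HET against WT (*Nr5a1*, adjusted p = 0.05) and 1 in CM against BORIS KO, where the block called 1 and the study's thresholds 0. No fold threshold gave 1 in BORIS KO against WT, and DESeq2 1 in CM against WT, with 1175 genes in all (64). Leaving out 1 library gave 0 to 2 in CM against WT and 1 to 4 in CM against BORIS KO.

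For peaks, counting the whole gene gave 3 for WT CTCF, 2 for WT Pol2 and 2 for WT H3K4me3. The upper 50% of each list gave 0 for WT CTCF, WT Pol2, WT H3K4me3 and CM H3K4me3 and 1 for CM Pol2, which a window of 1 kb put at 1 and the peak centre at 0. In germ cells many of the values other than those of *Star* rest on few counts, although these libraries were the deepest (47740650 to 98545423 counts).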
